A study of Mus musculus with 14 samples.

Results

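Chemokines are small secreted proteins that direct the movement of leukocytes, and their receptors are membrane proteins with a seven-pass fold that signal through inhibitory G proteins. In adipose tissue these receptors are known for the recruitment and positioning of monocytes, macrophages and lymphocytes. A smaller group, the atypical chemokine receptors, binds chemokines without classical G protein signalling and removes or transports them. Ccr2, Ccr1 and Cx3cr1 are best known on monocytes and macrophages, Cxcr3, Cxcr5 and Ccr7 on lymphocytes and dendritic cells, Cxcr4 on many leukocytes and progenitors, Ackr1 on venular endothelium and red blood cell precursors, and Ackr3 on vascular and stromal cells.

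The genes described were 9 chemokine receptors, Ccr1, Ccr2, Ccr7, Cx3cr1, Cxcr3, Cxcr4, Cxcr5, Ackr1 and Ackr3, taken by symbol from the 23282 genes of the count table, and all 9 were found. In mm10, 4 of these protein-coding genes lie on chromosome 9 (Cxcr5 at chr9:44511787-44526421, Cx3cr1 at chr9:120048683-120068296, Ccr1 at chr9:123962126-123968692, Ccr2 at chr9:124102183-124109140) and 3 on chromosome 1 (Ackr3 at chr1:90203980-90215722, Cxcr4 at chr1:128588199-128592299, Ackr1 at chr1:173331886-173333503). The other 2 are Ccr7 at chr11:99144199-99155077 and Cxcr3 at chrX:101731535-101734147. The tissue was epididymal white adipose tissue (eWAT), the visceral fat pad beside the epididymis, of wild type male C57BL/6J mice that were bought at 4 weeks of age and fed for 20 weeks. The control group received a normal diet (9 libraries, replicates 1 to 4 in batch 1 and 5 to 9 in batch 2), and the WD group received a Western diet rich in fat with added cholesterol (5 libraries, replicates 1 to 5). All 5 WD libraries belonged to batch 1, so in a comparison with the batch 2 controls diet and batch cannot be told apart. The whole fat pad was sequenced, so more cells that carry a receptor and more receptor RNA per cell cannot be told apart either.

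Each library was a 3′ mRNA library with 10278970 to 13712254 reads counted over genes, so that 3 reads corresponded to 0.219 to 0.292 CPM, that is, counts scaled to a common library total. Levels are given as raw read counts and as CPM normalised by the trimmed mean of M values (TMM) over the 14 libraries. Adipocyte marker RNA was abundant in 13 libraries (7 genes, summed level 27949 to 55529 CPM). Batch 1 control replicate 1 stood apart, with 5087 CPM of adipocyte markers and with 12.1% of its reads on 10 epididymis markers, against at most 0.00473% in any other library. Batch 1 control replicate 4 also stood apart, with 7999 genes detected against 10903 to 13780 in the other libraries. It held reads of only 2 members, Ccr2 and Ackr3, both at the highest level of its group. Fold changes that rest on these controls are therefore also given without them.

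Across the 14 libraries, the pairs of members with the highest Pearson r of log2(CPM + 1) were Cx3cr1 and Cxcr4 (0.80), Cxcr3 and Cxcr4 (0.76) and Cx3cr1 and Cxcr3 (0.63). All 3 shared the high values of WD replicates 3 and 4. Ackr3 had r of -0.59 with Cx3cr1 and -0.57 with Cxcr4, and Ccr2 had r of 0.04 with Cx3cr1 and 0.21 with Cxcr4. These values describe the libraries, which share batch and diet, and carry no test.

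The promoters of the 3 members that varied together are shown to let their start regions be compared. Each is the run of 250 bases before the RefSeq start site in GRCm38.p6, read 5′ to 3′ along the gene, at chr1:128592300-128592549 for Cxcr4, chr9:120068297-120068546 for Cx3cr1 and chrX:101734148-101734397 for Cxcr3, all on the minus strand. Capitals mark the motifs found on either strand among TATAAA, the ETS-type motif GAGGAAG and the core ACGTG.
Cxcr4: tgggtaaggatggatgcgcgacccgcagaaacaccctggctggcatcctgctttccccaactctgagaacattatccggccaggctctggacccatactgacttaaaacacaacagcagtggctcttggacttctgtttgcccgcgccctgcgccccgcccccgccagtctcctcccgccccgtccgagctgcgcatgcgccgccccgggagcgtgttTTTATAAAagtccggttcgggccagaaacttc
Cx3cr1: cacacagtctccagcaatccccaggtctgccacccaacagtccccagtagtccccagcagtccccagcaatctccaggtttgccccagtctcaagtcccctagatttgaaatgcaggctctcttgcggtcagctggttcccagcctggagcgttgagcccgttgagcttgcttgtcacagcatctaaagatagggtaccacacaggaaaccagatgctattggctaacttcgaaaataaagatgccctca
Cxcr3: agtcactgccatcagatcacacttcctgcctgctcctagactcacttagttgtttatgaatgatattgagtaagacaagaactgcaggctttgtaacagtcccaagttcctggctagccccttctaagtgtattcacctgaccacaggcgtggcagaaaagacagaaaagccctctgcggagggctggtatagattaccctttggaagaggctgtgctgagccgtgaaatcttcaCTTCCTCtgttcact

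Cxcr4 held TATAAA at -30 to -25 from the start site, overlapping a match on the other strand at -32 to -27, and 12.4% of the 32851 promoters of the same length held this motif. Cxcr3 held GAGGAAG on the other strand at -15 to -9, a motif of 10.6% of promoters. Cx3cr1 held none of the 3 motifs, and ACGTG, which 16.6% of promoters held, was in none of the 7 members with a promoter entry. The base composition also differed, with 61.2% G and C in Cxcr4, 53.6% in Cx3cr1 and 48% in Cxcr3, beside a median of 52.4% over all promoters. The 3 promoters thus had no searched motif in common.

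Cxcr4 and Ackr3 are the 2 receptors of the chemokine Cxcl12. Cxcr4 is the signalling receptor, and Ackr3 binds and clears the same ligand. Their mean levels in the WD group stood on opposite sides of the controls. Cxcr4 counts were 42, 18, 66 and 0 in the batch 1 controls, 158, 64, 445, 383 and 96 in the WD group, and 24, 25, 10, 102 and 31 in the batch 2 controls. The corresponding means were 2.88 ± 2.57 CPM (SD, n = 4), 17.9 ± 12.7 CPM (SD, n = 5) and 3.14 ± 2.74 CPM (SD, n = 5). Every WD library lay above every batch 1 control on the TMM-normalised scale, and WD replicates 3 and 4 were the highest of all 14 libraries.

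Compared with the batch 1 controls, the log2 fold change of Cxcr4 was 2.62 (SE 1.28), with an unadjusted p of 0.0617 and a false discovery rate (FDR) of 1.00 in the edgeR quasi-likelihood test. The two-sided exact permutation test on log2(CPM + 1) gave p = 0.00794, which is the smallest p that 4 against 5 libraries allow and is not adjusted over the members. Cxcr4 was the 1 member of 9 whose groups did not overlap in this comparison, and 3.03% of the 12157 genes tested were higher in the WD group without overlap. The separation was narrow. With CPM on library totals alone, WD replicate 2 (5.76 CPM) fell just below control replicate 3 (5.91 CPM), and the exact permutation p was 0.0238. Without controls 1 and 4 the log2 fold change was 2.35 (FDR 0.449).

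Against the batch 2 controls Cxcr4 rose by a log2 fold change of 2.50 (SE 0.69, edgeR FDR 0.0389). In 4 of 5 WD libraries the level exceeded all batch 2 controls, and WD replicate 2 (6.87 CPM) fell below control replicate 8 (7.79 CPM). The FDR was 0.0144 to 0.146 when single libraries were left out, and it exceeded 0.05 without control replicate 5, 6, 7 or 9 or without WD replicate 1, 3 or 4. Against all 9 controls the exact permutation test gave p = 0.00150. Markers of other cells also moved in the comparison with batch 2, where the adipocyte marker sums did not overlap (27949 to 42691 CPM in the WD group, 46032 to 55529 CPM in the controls). Adipoq (log2 fold change -1.40, FDR 0.000306), Plin1 (-1.19, FDR 0.000659) and Cidec (-0.87, FDR 0.0107) fell, and Lep (1.29, FDR 0.00611) and the stromal markers Col1a1 (1.47, FDR 0.00305) and Col3a1 (1.26, FDR 0.00461) rose. Against the batch 1 controls, in the same order, their log2 fold changes were -0.15, 0.30, -0.0096, 1.38, 0.17 and 0.84, and none passed the FDR. For batch 2 against batch 1 controls they were 1.23, 1.47, 0.84, 0.07, -1.31 and -0.43, and none passed the FDR. Of the 7 stromal markers, 5 had a positive log2 fold change against batch 2. Pi16 (-0.76) and Dpp4 (-0.87), named after their values were seen, had a negative one. The stromal marker sums overlapped, at 2157 to 4139 CPM in the WD group and 1204 to 2749 CPM in the batch 2 controls. The part of these markers in the changes of Cxcr4, Cx3cr1 and Ackr3 was not tested. Cxcr4 is also on the study's list of genes raised by the diet, which was chosen on these same libraries, so its direction here is not independent of that list.

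Ackr3 counts were 60, 273, 435 and 765 in the batch 1 controls, 199, 32, 288, 26 and 222 in the WD group, and 436, 280, 369, 461 and 402 in the batch 2 controls. Mean levels were 30.3 ± 20.8 CPM (SD, n = 4), 11.9 ± 8.74 CPM (SD, n = 5) and 32.1 ± 5.60 CPM (SD, n = 5). The batch 2 controls lay close together, whereas WD replicates 2 and 4 were the lowest 2 of the 14 libraries. All 5 WD libraries lay below all 5 batch 2 controls, and the exact permutation p was 0.00794. A total of 3.8% of the 12070 genes tested were lower in the WD group without overlap in that comparison.

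The edgeR test did not call Ackr3, with a log2 fold change of -1.45 (SE 0.52, unadjusted p = 0.0126, FDR 0.123) against the batch 2 controls and -1.35 (SE 0.83, unadjusted p = 0.126, FDR 1.00) against the batch 1 controls. In batch 1 the groups overlapped through control replicate 1, the library with epididymis RNA, at 6.48 CPM. Without that library the remaining 3 controls (22.8 to 55.5 CPM) lay above all WD libraries (2.06 to 21.3 CPM), and the exact permutation p was 0.0893. Their shared ligand gene Cxcl12, named for this role after its values were seen, had 0 to 560 reads in the batch 1 controls (median 285.5), 92 to 706 reads in the WD group (median 465) and 102 to 597 reads in the batch 2 controls (median 398). Its log2 fold change was 0.42 (SE 1.10, FDR 1.00) against batch 1 and 0.06 (SE 0.47, FDR 0.979) against batch 2.

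**Figure D1:**
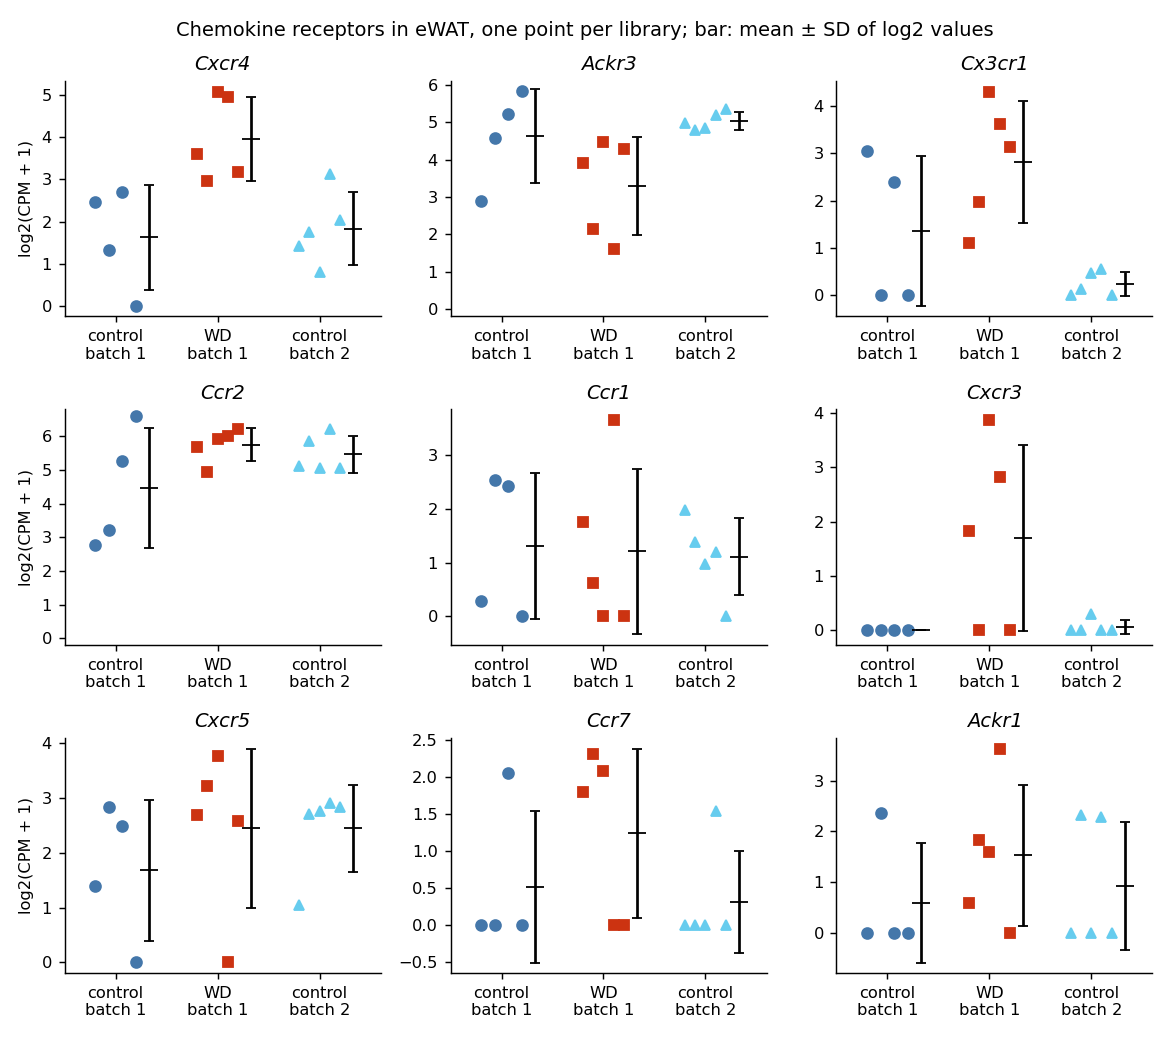
Level of each of the 9 receptors as log2(CPM + 1), with 1 point per library for batch 1 controls (circles, n = 4), the WD group (squares, n = 5) and batch 2 controls (triangles, n = 5) and black bars for the mean ± SD of the log2 values. All WD libraries lie above the batch 1 controls for Cxcr4, above the batch 2 controls for Cx3cr1 and below the batch 2 controls for Ackr3, while the remaining members overlap in both comparisons.

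Cx3cr1 is the receptor of the membrane-bound chemokine Cx3cl1 and marks patrolling monocytes and many tissue macrophages. Its counts were 67, 0, 51 and 0 in the batch 1 controls, 16, 27, 254, 143 and 93 in the WD group, and 0, 1, 5, 6 and 0 in the batch 2 controls. Mean levels were 2.87 ± 3.53 CPM (SD, n = 4), 8.38 ± 7.08 CPM (SD, n = 5) and 0.186 ± 0.216 CPM (SD, n = 5). Reads were thus found in every WD library, in 2 of 4 batch 1 controls, and at 6 reads or fewer in the batch 2 controls.

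Compared with the batch 2 controls, Cx3cr1 rose, with a log2 fold change of 5.39 (SE 1.28, edgeR FDR 0.0164). The groups did not overlap (exact permutation p = 0.00794), and 4.99% of the genes tested were higher without overlap. The gene passed the low count filter of this comparison through the WD group, where it was high. Because the batch 2 controls held so few reads, the size of this fold change is poorly determined. It was 4.87 with an FDR of 0.0921 without WD replicate 3, the library with the highest level. Against the batch 1 controls the log2 fold change was 1.53 (SE 1.72, unadjusted p = 0.389, FDR 1.00), and it was 1.98 (FDR 0.845) without controls 1 and 4. The 2 batch 1 controls with Cx3cr1 reads (7.24 and 4.25 CPM) exceeded WD replicates 1 (1.13 CPM) and 2 (2.90 CPM). Between the 2 sets of controls, Cx3cr1 was not tested by edgeR for lack of reads, and the exact permutation p was 0.206.

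Ccr2, the receptor of Ccl2 that brings inflammatory monocytes out of the bone marrow and into tissue, was read in every library. Its counts were 54, 100, 451 and 1326 in the batch 1 controls, 718, 275, 798, 806 and 890 in the WD group, and 481, 602, 433, 967 and 324 in the batch 2 controls. Mean levels were 37.0 ± 42.0 CPM (SD, n = 4), 55.4 ± 16.8 CPM (SD, n = 5) and 46.0 ± 18.9 CPM (SD, n = 5). The batch 1 controls spanned 5.83 to 96.2 CPM and enclosed all WD libraries, which spanned 29.5 to 74.2 CPM.

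The log2 fold change of Ccr2 was 0.58 (SE 0.69, edgeR FDR 1.00) against the batch 1 controls and 0.26 (SE 0.30, FDR 0.776) against the batch 2 controls. The value in batch 1 depended on single controls. It was 0.23 without control replicate 1 and 0.22 without control replicate 2. Without control replicate 4 the log2 fold change was 1.67 (FDR 0.336) and the exact permutation p went from 0.190 to 0.0357, whereas against the batch 2 controls the exact permutation p was 0.421.

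Ccr1, which binds Ccl3, Ccl5, Ccl6 and Ccl9 and is carried by monocytes and neutrophils, gave counts of 2, 58, 53 and 0 in the batch 1 controls, 34, 5, 0, 147 and 0 in the WD group, and 42, 17, 13, 17 and 0 in the batch 2 controls. Means were 2.37 ± 2.62 CPM (SD, n = 4), 2.91 ± 4.97 CPM (SD, n = 5) and 1.37 ± 1.08 CPM (SD, n = 5). All 3 groups contained a library without a read, and the WD mean rested on replicate 4 (11.6 CPM). The edgeR log2 fold change was 0.30 (SE 2.11, FDR 1.00) against batch 1, while the mean of log2(CPM + 1) was 0.11 lower in the WD group, 1.21 against 1.32. Against batch 2 the log2 fold change was 1.08 (SE 1.62, FDR 0.842), and it was -0.90 without WD replicate 4. No direction can be given for this gene.

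**Figure D2:**
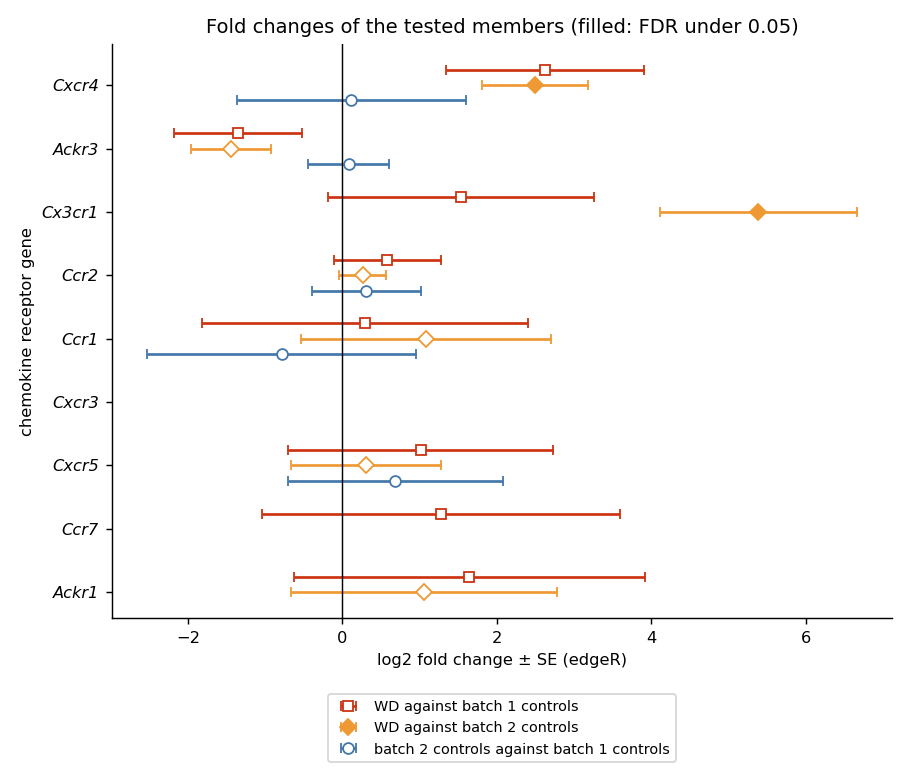
The log2 fold change ± SE from the edgeR quasi-likelihood test for each member that passed the low count filter, in WD against batch 1 controls (squares), WD against batch 2 controls (diamonds) and batch 2 against batch 1 controls (circles). Filled symbols have an FDR under 0.05, which holds for Cxcr4 (2.50) and Cx3cr1 (5.39) against batch 2 controls, and Cxcr3 has no symbol because it did not pass the filter.

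Cxcr3 is the receptor of the interferon-induced chemokines Cxcl9 and Cxcl10 and is typical of activated T cells and natural killer cells. It had no read in any batch 1 control, 36, 0, 183, 76 and 0 reads in the WD group, and 0, 0, 3, 0 and 0 reads in the batch 2 controls. Only WD replicates 1, 3 and 4 held more than 3 reads. The WD group averaged 4.42 ± 5.67 CPM (SD, n = 5). With a floor of 3 counts set for each batch 1 control (mean 0.254 CPM), the WD mean on library totals (4.64 CPM) was 18.3-fold above that floor. Without WD replicate 3 the WD mean was 2.16 CPM, 8.51-fold above it. The floor covers counting error only, and WD replicates 2 and 5 also had no read. These folds are therefore not lower bounds on the difference. Too few libraries held reads for the low count filter. With no filter the edgeR fit gave an FDR of 0.442 against batch 1 and 0.0895 against batch 2. With single batch 1 controls left out, the gene passed the filter only through the WD group, and the edgeR FDR was 0.388 to 0.725. The exact permutation p was 0.167 in either comparison and 0.0275 against all 9 controls.

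The gene of its ligand Cxcl9, again named after its values were seen, averaged 17.5 ± 15.2 CPM (SD, n = 4) for batch 1 controls, 43.9 ± 15.7 CPM (SD, n = 5) for the WD group and 46.2 ± 3.53 CPM (SD, n = 5) for batch 2 controls. The T cell markers (7 genes) summed to 0 to 8.32 CPM in the batch 1 controls, 7.40 to 38.0 CPM in the WD group and 1.95 to 8.76 CPM in the batch 2 controls. In both sets of controls Cd8a, named with the next 3 markers after values were seen, was at 0, and Cd3e, Cd3g and Lck were also at 0 in the batch 1 controls. WD replicate 3 had the highest sum of T cell markers and of B cell markers (89.9 CPM). It also had the highest level of Cxcr3, Cxcr4, Cx3cr1 and Cxcr5 among the 14 libraries. WD replicate 4 was next highest for Cxcr3, Cxcr4 and Cx3cr1. It had 8.55 CPM of T cell markers, 8.94 CPM of B cell markers and no Cxcr5 read. The part of these cells in the receptor levels was not tested.

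Cxcr5 guides B cells and follicular helper T cells toward the chemokine Cxcl13. Counts of Cxcr5 were 15, 74, 55 and 0 in the batch 1 controls, 77, 78, 170, 0 and 60 in the WD group, and 15, 58, 77, 85 and 62 in the batch 2 controls. Mean levels were 3.09 ± 2.80 CPM (SD, n = 4), 6.28 ± 4.63 CPM (SD, n = 5) and 5.01 ± 2.24 CPM (SD, n = 5). The groups overlapped, and the log2 fold change was 1.01 (SE 1.71, edgeR FDR 1.00) against batch 1 and 0.30 (SE 0.97, FDR 0.938) against batch 2.

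Reads given to Cxcr5 were also found where B cell markers were at or near 0. In the batch 2 controls, Cxcr5 had 15 to 85 reads in every library, whereas the 6 B cell markers summed to 0 to 6.71 CPM. The sums were 0 to 2.67 CPM in the batch 1 controls and 2.82 to 89.9 CPM in the WD group. Of the defining markers, named after their values were seen, Pax5 and Blk were at 0 in all 14 libraries, while Ms4a1 had a log2 fold change of 4.82 (SE 2.15, FDR 0.947) against batch 1 and 4.38 (SE 1.61, FDR 0.139) against batch 2. In the mm10 annotation Cxcr5 lies on the minus strand of chr9:44511787-44526421, and its last 110 exonic bases (chr9:44511787-44511896) are also exonic in Bcl9l, a coactivator of beta-catenin on the plus strand. Bcl9l had 357 to 1402 reads per library. Whether reads were counted by strand is not given in the sources used here, so Cxcr5 values are uncertain. In control replicate 4 and WD replicate 4, Cxcr5 had no read beside 1251 and 357 reads of Bcl9l.

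The gene of the ligand, Cxcl13, averaged 3.69 ± 2.50 CPM (SD, n = 4) for batch 1 controls, 19.4 ± 11.8 CPM (SD, n = 5) for the WD group and 3.93 ± 2.91 CPM (SD, n = 5) for batch 2 controls. Its log2 fold change was 2.39 (SE 1.22, edgeR FDR 1.00) against batch 1 and 2.28 (SE 0.81, FDR 0.123) against batch 2. Cxcl13 is likewise on the study's own list and was named here after its values were seen.

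Ccr7 leads dendritic cells and naive T cells to lymph nodes along Ccl19 and Ccl21. It was read in 1 of 4 batch 1 controls (38 reads), in 3 of 5 WD libraries (35, 37 and 44 reads) and in 1 of 5 batch 2 controls (25 reads). Where present, its level stayed between 1.91 and 3.97 CPM in all groups, so the groups differed in the number of libraries with reads. The log2 fold change against batch 1 was 1.28 (SE 2.32, edgeR FDR 1.00). It rested on control replicate 3, without which the batch 1 controls were at 0 and the fitted value was 7.54, and it was 0.85 to 0.87 without any other control. The exact permutation p was 0.365 against batch 1 and 0.167 against batch 2.

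Ackr1, which carries chemokines across venular endothelium, had reads in 1 of 4 batch 1 controls (50), in 4 of 5 WD libraries (7, 24, 27 and 144) and in 2 of 5 batch 2 controls (42 and 51). Mean levels were 1.04 ± 2.09 CPM (SD, n = 4), 3.29 ± 4.65 CPM (SD, n = 5) and 1.58 ± 2.16 CPM (SD, n = 5). WD replicate 4 alone (11.4 CPM) exceeded all controls. The log2 fold change was 1.65 (SE 2.27, edgeR FDR 1.00) against batch 1 and 1.06 (SE 1.72, FDR 0.860) against batch 2. The batch 1 value rested on control replicate 2. Without it all batch 1 controls were at 0 and the fitted value, which then depends on the prior count, was 8.32, and against batch 2 the value was -0.34 without WD replicate 4. In the GENCODE vM21 gene model, which begins upstream of the deposited one, 361 exonic bases of Ackr1 (chr1:173333390-173333750) are shared with Cadm3 on the same strand, and 114 of them lie within the deposited gene. Reads there could be counted for both genes. Cadm3 counts were 0, 51, 20 and 0 in the batch 1 controls and 72, 50, 80, 62 and 107 in the WD group. They were 81, 29, 49, 57 and 113 in the batch 2 controls. Batch 1 control replicate 3, WD replicate 5 and batch 2 control replicates 5, 7 and 9 had Cadm3 reads but no Ackr1 read. The part of shared reads in the Ackr1 counts was not tested. Summed endothelial markers (8 genes) overlapped between the groups, at 57.0 to 231 CPM in batch 1 controls, 48.8 to 137 CPM in the WD group and 62.4 to 176 CPM in batch 2 controls.

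Over the members, the edgeR test called 0 of the 8 tested in WD against the batch 1 controls, as it called 0% of the 12157 genes. At an unadjusted p under 0.05 it also found 0 of the 8, beside 5.17% of all genes, and DESeq2 called 0 members. Without controls 1 and 4, the log2 fold changes were -1.31 for Ackr3, 1.27 for Ccr2, 0.65 for Ackr1, 0.29 for Ccr7, 0.22 for Cxcr5 and -0.67 for Ccr1. Again 0 members were called. At an unadjusted p under 0.05 that edgeR fit found 3 of 9 members, beside 1279 of 13576 genes. Without control replicate 4 alone it found 3 of 9, beside 1328 of 12901 genes. Cxcr3, which passed the filter through the WD group, was among the 3 in both fits. In WD against the batch 2 controls, 2 of the 7 members tested rose, beside 3.93% of all genes, and 3 of 7 had an unadjusted p under 0.05, beside 17.7% of all genes. Of the 2 that rose, Cx3cr1 passed the low count filter through the WD group.

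Between the 2 sets of controls, 0 of 5 members tested were called, as were 0% of the 12106 genes. At an unadjusted p under 0.05 edgeR found 0 of 5, beside 7.39% of all genes, and DESeq2 called 0 members. The log2 differences of batch 2 minus batch 1 controls were 0.11 (SE 1.49) for Cxcr4, 0.08 (SE 0.53) for Ackr3, 0.31 (SE 0.71) for Ccr2, 0.68 (SE 1.39) for Cxcr5 and -0.79 (SE 1.74) for Ccr1. The comparisons of the WD group with each set of controls share the WD libraries. A p above the threshold does not show that the 2 sets of controls were alike.

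The plot of receptor level beside macrophage RNA sets 4 members beside the markers of a cell type that carries many of them. The summed level of 10 macrophage markers was 395 to 1706 CPM in the batch 1 controls, 1864 to 3111 CPM in the WD group and 413 to 858 CPM in the batch 2 controls. Against the batch 2 controls, all 9 macrophage markers tested rose, beside 3.93% of all genes, among them Adgre1 (log2 fold change 2.70, SE 0.24, FDR 7.11e-06), Cd68 (3.60, SE 0.35, FDR 1.26e-05), C1qb (2.05, SE 0.27, FDR 0.000225) and C1qa (1.96, SE 0.28, FDR 0.000374). Against the batch 1 controls 0 of 9 passed the FDR and 7 had an unadjusted p under 0.05. The log2 fold changes of these 4 genes were then 1.94, 1.14, 1.42 and 1.45. Between the 2 sets of controls, 0 of 9 markers were higher in batch 2. Their median log2 fold change there was -0.64, and 2 had an unadjusted edgeR p under 0.05. Within the WD group, Cxcr4 and Cx3cr1 were highest in replicates 3 and 4 (2125 and 2426 CPM of macrophage markers), not in replicates 1 and 2, which had the most macrophage RNA (2921 and 3111 CPM). The batch 1 control with the most macrophage RNA, replicate 4, had no Cxcr4 or Cx3cr1 read. That library also had the fewest genes detected (7999) and reads of only 2 members, so its zeros say little about these receptors. Monocyte markers (5 genes) summed to 26.6 to 79.0 CPM in the batch 1 controls, 33.0 to 60.3 CPM in the WD group and 17.4 to 46.7 CPM in the batch 2 controls, and 0 of the 4 to 5 tested passed the FDR in either comparison. The part of cell numbers in the receptor levels was not tested.

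**Figure D3:**
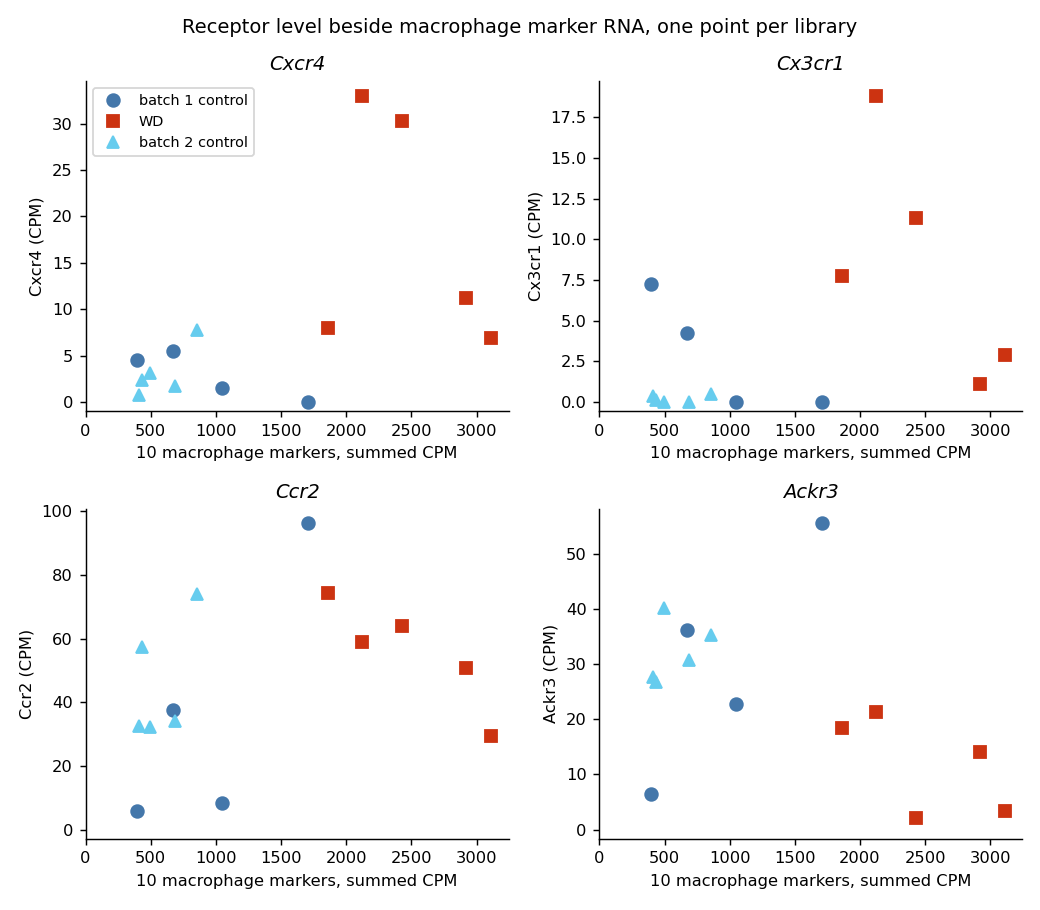
Level of Cxcr4, Cx3cr1, Ccr2 and Ackr3 in CPM (vertical axes) against the summed CPM of 10 macrophage markers (horizontal axes), with 1 point per library for batch 1 controls (circles), the WD group (squares) and batch 2 controls (triangles). The WD libraries lie to the right, at 1864 to 3111 CPM of macrophage markers, and among them the highest Cxcr4 and Cx3cr1 levels belong to libraries with 2125 and 2426 CPM.

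Of the 14 other chemokine receptors in the list, most had too few reads to be tested, and 5 passed the filter against batch 1 and 6 against batch 2. Of these, Ccrl2, Xcr1 and Ackr2, named after their values were seen, had 0, 0.146 and 0 CPM on average in the batch 1 controls and 4.32, 3.39 and 3.35 CPM in the WD group. Their FDR against batch 1 was 0.490, 0.942 and 0.566, and there they passed the filter through the WD group. Against batch 2 their log2 fold changes were 1.51 (FDR 0.647), 0.58 (FDR 0.909) and 0.07 (FDR 0.987). For batch 2 against batch 1 controls the fitted log2 fold change was also positive for Xcr1 (3.84, FDR 0.750) and Ackr2 (8.25, FDR 0.445), without a call. Ackr2 had no read in any batch 1 control. It thus passed the filter there through the batch 2 controls, and its fitted value depends on the prior count.

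Among 14 ligand genes of the members, 2 of 11 tested rose against the batch 2 controls, beside 3.93% of all genes, and 0 of 12 passed the FDR against batch 1, where 0 also had an unadjusted p under 0.05. Both code for ligands of Ccr1. Ccl9 averaged 174 ± 106 CPM (SD, n = 4) for batch 1 controls, 322 ± 129 CPM (SD, n = 5) for the WD group and 98.1 ± 40.9 CPM (SD, n = 5) for batch 2 controls, with a log2 fold change of 1.70 (SE 0.31, FDR 0.00272) against batch 2 and 0.88 (SE 0.48, FDR 1.00) against batch 1. The corresponding means of Ccl6 were 403 ± 267, 639 ± 196 and 334 ± 125 CPM, with a log2 fold change of 0.92 (SE 0.27, FDR 0.0485) against batch 2 and 0.66 (SE 0.47, FDR 1.00) against batch 1. The median log2 fold change of the ligands was 0.61 against batch 1 and 1.13 against batch 2, beside 0.031 and -0.0034 over all genes tested. For batch 2 against batch 1 controls it was -0.56, beside -0.0024 over all genes, and 4 of 12 ligands had a positive value.

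Signalling genes downstream of the receptors were taken from a list of 18, of which 17 were in the table and 16 were tested against batch 2. Of these, 4 rose, beside 3.93% of all genes. Dock2, the exchange factor that couples chemokine receptors to Rac in leukocytes, had a log2 fold change of 2.39 (SE 0.39, FDR 0.00113). Rgs1, a regulator that ends G protein signalling, had 4.32 (SE 0.81, FDR 0.00305), the exchange factor Vav1 had 2.81 (SE 0.77, FDR 0.0369), and the G protein subunit gene Gng2 had 1.34 (SE 0.38, FDR 0.0478). Against the batch 1 controls their log2 fold changes were 1.68, 1.26, 2.66 and 0.91, and 0 of 17 passed the FDR or had an unadjusted p under 0.05. The list's median was 0.76 against batch 1 and 0.97 against batch 2, beside 0.031 and -0.0034 over all genes tested. For batch 2 against batch 1 controls it was -0.33, with 4 of 16 genes positive and 0 that passed the FDR. Dock2, Rgs1, Vav1 and Gng2 were then at -0.73, -3.08, -0.17 and -0.45. Dock2, Vav1 and Ccl9 are on the study's list chosen on these libraries.

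Outside the family, the genes most like each member over the 14 libraries were searched among 13160 genes, except for Cxcr3, which did not pass the filter over the 14 libraries. Cxcr4 was most like Hscb (Pearson r 0.90), 2310022A10Rik (0.90) and Wsb1 (0.88), and Cx3cr1 was most like Slc25a13 (0.89), Cenpf (0.88) and Hist1h1e (0.87). Ccr2 was most like Psd3 (0.94), Ppp2r2a (0.92) and the fibronectin gene Fn1 (0.92). Ackr3 was most like Tspan12, a membrane protein of Wnt and Norrin signalling (0.92), Pi4ka (0.92) and Cpeb1 (0.91). The genes most like Ccr1 were Zfp746 (0.92), Man2a1 (0.85) and Saa1 (0.84), and those most like Ccr7 were Npy1r (0.94), Psd4 (0.91) and Cdk18 (0.91). For Cxcr5 they were Mnd1 (0.92), Rrp36 (0.91) and Flt1 (0.89), and for Ackr1 they were B3gnt3, Dcp1b and Tacc3 (0.80 each). Each is the top of many candidates over few libraries and stands as a description.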

How the data were processed

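RNA from eWAT of 14 samples was converted into QuantSeq 3′ mRNA libraries, which begin at the poly(A) tail, and sequenced as single-end 75 reads. The authors aligned reads with Bowtie2 to mm10, named in the submitters' notes, and deposited raw read counts per gene (unique and multiple alignments, bedtools) together with log2 values of TMM-normalised CPM from edgeR with 1 added. The deposited log2 values differed by at most 0.0507 from log2(CPM + 1) recomputed from the deposited counts. Multiple alignments can give reads to similar genes.

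From the counts, genes were filtered by filterByExpr and tested with edgeR 4.0.16 (R 4.3.3) quasi-likelihood F tests, TMM scaling and Benjamini-Hochberg adjustment over all genes tested, with an FDR threshold of 0.05. Standard errors were derived from the F statistic. The WD group was compared with batch 1 and batch 2 controls, and the 2 sets of controls with each other. Exact two-sided permutation tests used mean log2(CPM + 1) and were not adjusted over the members. DESeq2 1.42.0, other scalings, filters, designs and left-out libraries were alternatives, and the fit was tested on simulated data. Library totals were 10278970 to 13712254 counts, and floors cover counting error only. Mice were assigned to the diets at random per the study's methods. The labels do not tie libraries to single animals, so p-values measure the spread between these samples.

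Sequences came from RefSeq (GRCm38.p6), where 7 of 9 members had a promoter entry. Ccr7 and Cxcr5 had none. Named genes were all members, genes of the other lists with an FDR under 0.05 (up to 4 a list by smallest FDR, otherwise the 2 with the highest mean CPM), and the 3 genes most like each member. Genes named outside this rule are marked as such. Of the lists with no called gene, the T cell, B cell, monocyte and endothelial lists are given as sums. The epididymis list is given as a share of reads. The lists for dendritic cells, natural killer cells, neutrophils, erythroid cells and mesothelial cells are not given. The members and lists were chosen with earlier results of these data known. The alternatives that leave out control replicate 1 or 4 from the permutation tests were chosen after seeing the data. So were those for the batch 2 form of these tests and the Cxcr3 fold above the floor without WD replicate 3. The result of 1 gene of the list of other chemokine receptors is not reported here.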

Additional observations from a re-analysis of the deposited data

Results flagged for a closer look

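In 5 of the 26 groups of a member's log2(CPM + 1) values that could be examined, 1 library stood apart from the others by Dixon's criterion. In 4 of the 5 the remaining libraries had no read, so that any library with reads meets it by construction, and the chance rate of about 1 group in 20 does not apply to them. Ccr7 reached 2.06 in batch 1 control replicate 3 and 1.54 in batch 2 control replicate 8, with 38 and 25 reads. Ackr1 reached 2.37 in batch 1 control replicate 2, with 50 reads. Cxcr3 reached 0.29 in batch 2 control replicate 7, which rested on 3 reads and is at the limit of detection. Cxcr5 was low in batch 2 control replicate 5, at 1.04 with 15 reads, against 2.71 to 2.91 in the other 4 libraries of its group.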

How the results depend on the processing

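The count of members called against batch 1 controls was 0, and between the controls 0, under every alternative run. Against batch 2 controls it was 2 with other size factors, no filter or DESeq2, and 0 to 2 when single libraries were left out (0 without WD replicate 3). The count not overlapping with batch 1 controls was 1, but 0 with CPM on library totals and 0 against all 9 controls, and 1 to 2 with control replicate 1 or 4 left out (2 without replicate 1, as Ackr3 joined Cxcr4). Leaving out 1 library turned the sign of uncalled fold changes, with ranges of -0.12 to 0.91 for Ccr1 against batch 1 controls, and against batch 2 controls -0.90 to 1.58 for Ccr1, -0.34 to 1.74 for Ackr1 and -0.11 to 0.63 for Cxcr5. Between the controls the ranges were -0.26 to 0.56 for Ackr3, -0.55 to 0.66 for Cxcr4 and -0.055 to 1.43 for Ccr2. Other reversals were Ccr1 without controls 1 and 4 (-0.67), Ackr3 between controls with RLE size factors (-0.011) and DESeq2 (-0.011), and, in mean log2 differences, Ccr1 against all 9 controls (0.0062), and against batch 2 controls Ccr1 (-0.42) and Cxcr5 (-0.48) with a pseudocount of 0.1 and Cxcr5 on library totals (-0.011). The cause was not tested.

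Same-numbered samples of batch 1 did not deviate together (correlations -0.016 to 0.077, 2 of 4 highest with their own number). With a replicate block 0 members were called, the median over all genes was 0.29, and the log2 fold changes were 3.03 for Cxcr4, -1.76 for Ackr3, 4.00 for Cx3cr1 and 1.23 for Ccr2. Genes called numbered 0 against batch 1 controls but 114 with DESeq2, 108 without controls 1 and 4, 67 with all 14 libraries and no batch term, and 48 without control replicate 4. Between the controls DESeq2 called 111, and edgeR 0. Levels under about 0.3 CPM rest on 3 reads or fewer.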
